A study of Mus musculus with 28 samples.

Results

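The genes of MHC class I antigen presentation and peptide loading were followed in macrophages of the mouse brain after bone marrow transplantation. The set holds 10 genes chosen by symbol: H2-K1, H2-D1, B2m, Tap1, Tap2, Tapbp, H2-T23, H2-Q7, Nlrc5 and Psmb8. All 10 were found among the 14617 genes of the count table, and all 10 passed the low-count filter that left 12327 genes for testing. Cx3cr1 gfp/+ host mice were lethally irradiated and given marrow of Vav-Cre: hDNMT3A fl/fl mice (mutant) or of hDNMT3A fl/fl mice without Cre (control), so the floxed human DNMT3A allele was carried in both arms. Vav-Cre acts in blood-forming cells. The hosts are described by their Cx3cr1 gfp allele alone. At 16 weeks after transplantation, GFP- cells from the donor marrow and GFP+ cells of the host were sorted from the leptomeninges and from the brain parenchyma, whose cells are labelled microglia. The 28 libraries form 8 groups: mutant and control donor leptomeningeal cells (4 libraries each), mutant and control host leptomeningeal cells (2 each), mutant and control donor microglia (4 each), and mutant and control host microglia (4 each). Each library came from up to 100000 sorted cells, handled with actinomycin D, and was read by MARS-seq, which counts unique molecular identifiers (UMIs) at the 3′ ends of polyadenylated RNA. Donor and host cells also differ in irradiation and in the Cx3cr1 gfp allele, and these cannot be told apart from origin. The labels do not say that libraries came from separate animals, and the p-values then cover only library-to-library spread, which may be technical.

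MHC class I molecules show peptides from inside the cell to CD8 T cells and NK cells. Peptides are cut by the proteasome, in immune cells by the immunoproteasome whose catalytic subunits include Psmb8. The TAP1 and TAP2 proteins form the transporter that carries peptides into the endoplasmic reticulum, where tapasin (Tapbp) bridges the transporter to a heavy chain that waits, paired with B2m, for a peptide. H2-K1 and H2-D1 encode the classical heavy chains, and H2-T23 (Qa-1b) and H2-Q7 (Qa-2) encode nonclassical ones. NLRC5 is a transactivator that assembles with RFX, CREB/ATF and NF-Y proteins on a conserved promoter module (the SXY module), and in the brain class I molecules are found on microglia, border macrophages and endothelium.

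On mm10 (GENCODE M21) the members other than B2m and Nlrc5 lie within the MHC on chromosome 17 between 33915899 (the start of Tapbp) and 36032855 (the highest position of H2-T23). B2m lies on chromosome 2 from 122147686 to 122153083 and Nlrc5 on chromosome 8 from 94434356 to 94527272. Promoter windows of 300 bases, from 250 before to 50 after the first listed RefSeq start (GRCm38.p6), were available for 8 members. The windows of H2-K1, H2-D1, H2-Q7 and B2m, which hold X2 and Y box motifs at a like spacing, are shown. Those of Tap1 and Tapbp, which lack that spacing, are also shown, and those of H2-T23 and Psmb8, which lack it too, are not. By median levels across the populations, B2m, whose window holds the spacing, was ordered otherwise than H2-Q7. Psmb8, whose window lacks it, was ordered as H2-Q7 was. Whether the spacing bears on these orders was not tested, and a window without it does not show that the gene lacks it elsewhere. Capitals mark matches to the interferon-stimulated response element core (GAAA, any 2 bases, GAAA), the kappaB motif (GGGA, any 4 bases, CC), the CREB half-site TGACG of the X2 box, the NF-Y motif ATTGG of the Y box and the gamma-activated site TTCNNNGAA, each searched on both strands.
H2-K1 promoter, chr17:34000298-34000597, minus strand: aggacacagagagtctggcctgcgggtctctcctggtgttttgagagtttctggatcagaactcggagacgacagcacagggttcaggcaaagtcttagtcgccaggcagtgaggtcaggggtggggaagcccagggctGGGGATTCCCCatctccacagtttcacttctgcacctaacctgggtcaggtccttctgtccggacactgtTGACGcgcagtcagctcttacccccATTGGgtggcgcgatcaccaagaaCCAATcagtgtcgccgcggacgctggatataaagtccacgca
H2-D1 promoter, chr17:35262844-35263143, plus strand: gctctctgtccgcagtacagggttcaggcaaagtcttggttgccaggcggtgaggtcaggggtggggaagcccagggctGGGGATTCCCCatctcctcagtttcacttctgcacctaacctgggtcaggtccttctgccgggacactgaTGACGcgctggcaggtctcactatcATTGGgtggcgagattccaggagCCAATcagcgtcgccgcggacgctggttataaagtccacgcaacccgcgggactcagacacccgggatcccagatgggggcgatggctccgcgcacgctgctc
H2-Q7 promoter, chr17:35438905-35439204, plus strand: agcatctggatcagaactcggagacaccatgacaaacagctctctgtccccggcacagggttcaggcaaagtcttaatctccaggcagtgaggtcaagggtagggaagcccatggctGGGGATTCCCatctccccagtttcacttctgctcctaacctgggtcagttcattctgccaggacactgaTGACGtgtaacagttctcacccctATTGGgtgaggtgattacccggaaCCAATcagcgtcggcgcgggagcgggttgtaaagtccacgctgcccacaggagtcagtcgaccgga
B2m promoter, chr2:122147437-122147736, plus strand: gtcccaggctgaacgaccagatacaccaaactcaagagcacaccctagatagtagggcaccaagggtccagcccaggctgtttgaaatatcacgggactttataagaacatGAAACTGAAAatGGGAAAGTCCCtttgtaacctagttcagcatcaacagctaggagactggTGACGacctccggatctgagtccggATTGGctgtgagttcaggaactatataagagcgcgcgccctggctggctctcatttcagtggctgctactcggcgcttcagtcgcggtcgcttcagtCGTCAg
Tap1 promoter, chr17:34187306-34187605, plus strand: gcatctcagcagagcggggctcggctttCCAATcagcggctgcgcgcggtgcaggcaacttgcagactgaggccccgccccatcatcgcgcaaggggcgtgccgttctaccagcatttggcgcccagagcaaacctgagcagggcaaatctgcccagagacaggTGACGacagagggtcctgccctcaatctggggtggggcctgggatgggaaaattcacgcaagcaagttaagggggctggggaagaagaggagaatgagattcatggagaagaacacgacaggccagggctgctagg
Tapbp promoter, chr17:33919228-33919527, plus strand: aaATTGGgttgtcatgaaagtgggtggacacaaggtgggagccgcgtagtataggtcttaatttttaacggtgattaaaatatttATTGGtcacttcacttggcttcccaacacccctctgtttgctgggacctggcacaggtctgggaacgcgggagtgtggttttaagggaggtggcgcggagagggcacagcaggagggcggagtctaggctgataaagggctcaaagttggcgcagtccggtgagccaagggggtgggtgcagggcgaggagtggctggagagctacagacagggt

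H2-K1, H2-D1 and H2-Q7 shared 1 layout in these windows, with a kappaB match upstream of TGACG, then ATTGG, then ATTGG on the opposite strand. The H2-K1 and H2-D1 windows were 87.9% identical over the 240 aligned columns that overlapped, H2-D1 and H2-Q7 82.7% over 266, and H2-K1 and H2-Q7 78.8% over 278. B2m held an interferon element and a kappaB match close to each other, then TGACG and ATTGG, and a second TGACG on the opposite strand after the start. In all 4 windows TGACG was followed by ATTGG after 20 bases (19 in H2-Q7), a spacing chosen after these matches were seen. That pair was found in 43 of the 32851 promoter windows of the table (0.131%), which belonged to 38 genes, and besides the 4 members these included the class I-like heavy chain H2-M3. H2-T23 held an interferon element and a Y box motif, Tap1 a TGACG and a Y box motif far apart and in the other order, Tapbp 2 Y box motifs, and Psmb8 a single gamma-activated site. Among all windows, the interferon element core was in 3.44%, the kappaB motif in 20.7%, TGACG in 20.8%, ATTGG in 37.4% and TTCNNNGAA in 8.3%. The kappaB matches on opposite strands of H2-K1, H2-D1 and B2m overlap each other. The RefSeq start lay 3579 bases downstream of the GENCODE gene start in Tapbp, 474 in Psmb8, 364 in H2-D1 and 154 in H2-T23, so other starts of these genes are outside the windows. A match is a sequence description, not evidence of binding. Motifs were searched as exact strings, so elements that depart from them are missed. The lack of an interferon element match in H2-K1, H2-D1 and H2-Q7 therefore does not show that they have no such element.

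**Figure D1:**
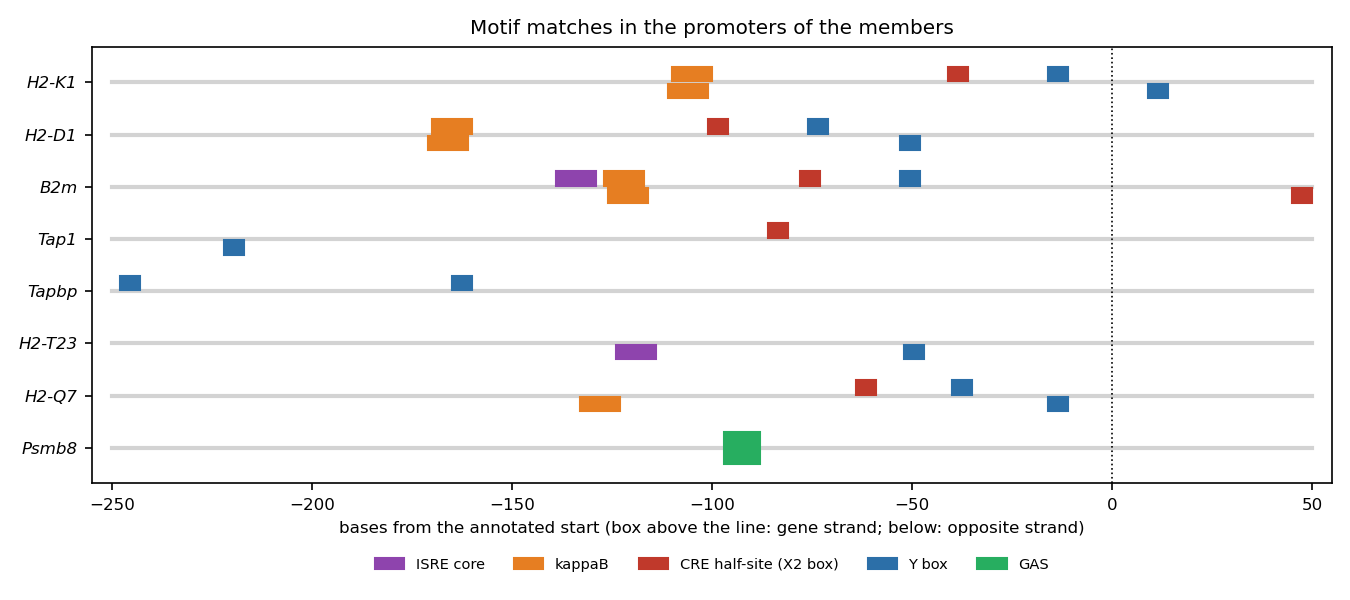
Positions of the 5 motifs in the 300-base windows of 8 members, in bases from the annotated start (dotted line), with gene-strand matches above and opposite-strand matches below each line. H2-K1, H2-D1, H2-Q7 and B2m each hold a TGACG match followed 19 or 20 bases later by a Y box match.

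Library totals ran from 479077 to 3066506 UMIs with a median of 1634653.5, and were lowest in donor microglia. Levels are given as counts per 1000000 UMIs (CPM), and fold changes are log2 values ± SE from edgeR's quasi-likelihood test with TMM scaling and Benjamini-Hochberg (BH) adjustment over all genes tested, called at an adjusted p under 0.05. TMM scaled library totals by a mean factor of 0.857 in donor leptomeningeal cells, 1.01 in host leptomeningeal cells, 1.01 in donor microglia and 1.15 in host microglia, so that folds and CPM ratios differ where the first or last of these enters. Microglial markers (11 genes) made up 0.757% to 0.937% of UMIs in donor microglia, against 3.08% to 3.73% in host microglia, and border macrophage markers (11 genes) 0.374% to 0.664% in donor leptomeningeal cells, against 1.29% to 1.80% in host leptomeningeal cells. Neutrophil markers (13 genes, with Elane and Mpo at 0 in mutant host leptomeningeal libraries) made up 3.65% to 9.78% of UMIs in donor leptomeningeal cells, against 0.194% to 0.590% in host leptomeningeal cells and 0.0964% to 1.03% in donor microglia. Astrocyte markers (9 genes) made up 0.0975% to 0.450% in donor microglia against 0.0150% to 0.0206% in host microglia, and neuron markers (10 genes) 0.0353% to 0.188% against 0.00267% to 0.00461%. The part of these other cells in the results below was not tested. In sorted bulk samples fewer cells of a type and less RNA per cell cannot be told apart. Mouse Dnmt3a averaged 67.5 ± 7.41 CPM in mutant and 70.8 ± 16.9 CPM in control donor microglia (SD, n = 4 each), which does not check the human allele.

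The leptomeningeal cells had higher levels of most members than the parenchymal cells of the same origin. Leptomeningeal minus parenchymal donor cells had 9 of the 10 members higher and 0 lower, where 30.5% of all genes were higher and 31.5% lower. Host cells had 9 higher and 0 lower, where 31.1% of all genes were higher and 25.7% lower. The median fold of the members was 0.79 in donor cells and 1.34 in host cells, beside -0.03 and 0.08 over all genes tested. Donor leptomeningeal cells did not overlap donor microglia, and were higher, in 5 members (10.3% of all genes), and host leptomeningeal cells did not overlap host microglia, and were higher, in 8 (18.3%). The member not called in donor cells was H2-T23, and the member not called in host cells was Tap1.

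Donor and host microglia differed in 7 members, and donor and host leptomeningeal cells in 5. Donor minus host microglia had 6 members higher (H2-K1, H2-D1, H2-T23, H2-Q7, Nlrc5 and Psmb8; 33.1% of all genes were higher) and Tapbp lower (27.3% of all genes). Donor minus host leptomeningeal cells had 5 members higher (H2-K1, H2-D1, Tap1, H2-Q7 and Psmb8; 16.9% of all genes) and 0 lower (13.3%). The median member fold was 0.58 in the parenchyma and 0.26 in the leptomeninges, beside 0.04 and 0.02 over all genes. Donor microglia did not overlap host microglia in H2-K1, H2-D1, H2-Q7, Nlrc5 and Psmb8, which were higher (12.5% of all genes), and in Tapbp, which was lower (16.1%). Donor leptomeningeal cells did not overlap host leptomeningeal cells in B2m and Tap2 alone, both lower (16% of all genes), and in 0 members that were higher (7.5%). The leptomeningeal calls depended on the scaling. With plain library totals, chosen as an alternative after seeing the data, the median of all genes moved to -0.22, and the members called were B2m (-0.52, adjusted p = 0.0372) and Tap2 (-0.44, adjusted p = 0.000598), both lower, while none of the 5 higher members was called. Against that median, the plain-total folds of H2-K1 (0.01), H2-D1 (0.17), Tap1 (0.24), H2-Q7 (0.15) and Psmb8 (0.05) were higher. The share of higher genes among all calls was 56% with TMM and 29.9% with plain totals there, 54.8% and 44% for donor minus host microglia, 49.1% and 34.6% for the compartments in donor cells, and 54.8% and 43.9% in host cells. Tap2 was also called lower in donor than in host microglia with plain totals (-0.21, adjusted p = 0.0352).

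The H2-K1 call between donor and host leptomeningeal cells was lost without any of 9 single libraries (adjusted p = 0.0595 to 0.298), with folds of 0.21 to 0.27 in 8 of these fits and 0.17 without control host library 1. The 9 were control donor libraries 1, 2 and 3, mutant donor libraries 1, 3 and 4, control host library 1 and both mutant host libraries. The H2-Q7 call was lost without mutant donor library 1, mutant host library 2 or control host library 1 (adjusted p = 0.0798, 0.145 and 0.246). The Psmb8 call was lost without mutant host library 2 or control host library 2 (adjusted p = 0.141 and 0.128). The H2-D1 and Tap1 calls were kept without each library in turn. Tapbp, not called in the fit of all libraries (0.23 ± 0.10, adjusted p = 0.0709), was called with DESeq2 (adjusted p = 0.0324), with voom (0.0273), without the low-count filter (0.0411), with these groups fitted alone (0.0475) and without control host library 2 (0.31, adjusted p = 0.0403). The number of members called fell below 5 without some single libraries and did not rise above 5 without any. It was 6 with DESeq2, with voom and without the low-count filter, 7 with these groups fitted alone, and 4 with replicate numbers as a block.

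**Figure D2:**
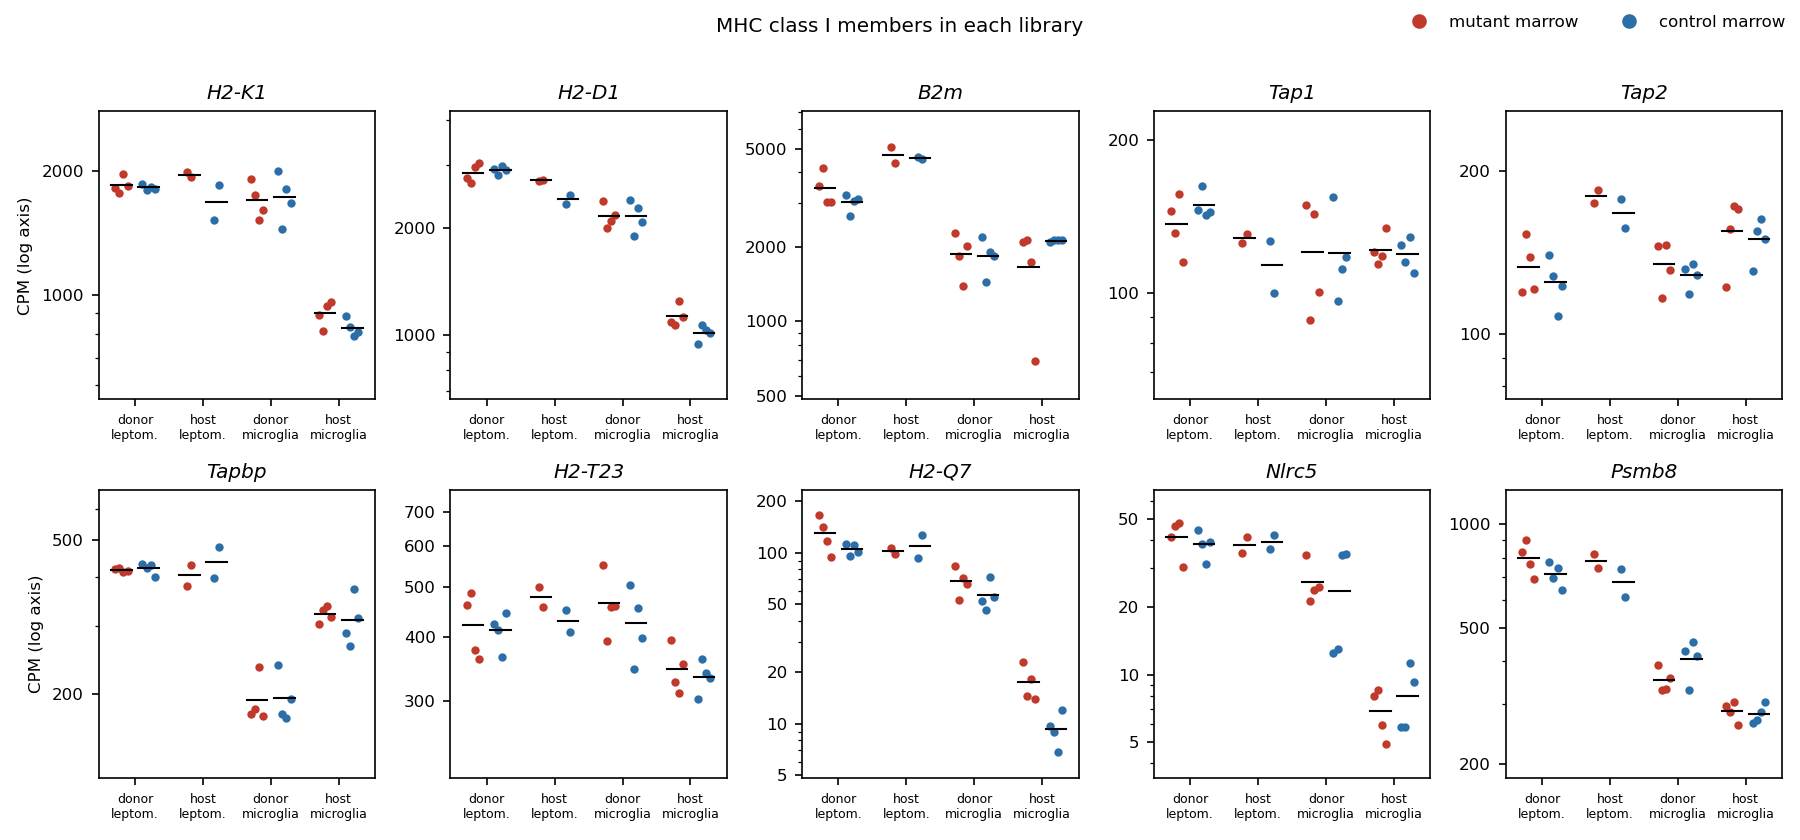
CPM of each member in each of the 28 libraries on log axes, with mutant marrow left of control marrow in each population and a black line at the group mean. Host microglia are the lowest population for H2-K1, H2-D1, H2-Q7, Nlrc5 and Psmb8, and donor microglia are the lowest for Tapbp.

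H2-K1, a classical heavy chain, had 1766, 1823 and 1970.3 CPM (lowest, median and highest of 8 libraries) in donor leptomeningeal cells. Host leptomeningeal cells had 1993 and 1933 CPM in mutant and 1521 and 1849 CPM in control chimeras. Donor microglia had 1444, 1709 and 2002 CPM (lowest, median, highest), against 792, 859.9 and 961 CPM in host microglia. Host microglia thus lay apart, below all other libraries, while the other 3 populations overlapped one another. The fold was 1.16 ± 0.08 between donor and host microglia and 1.25 ± 0.09 between host cells of the leptomeninges and parenchyma (adjusted p = 3.04e-17 and 4.5e-16). It was 0.34 ± 0.08 for leptomeningeal minus parenchymal donor cells (adjusted p = 2e-04), which was 0.10 (adjusted p = 0.23) with plain totals, and 0.25 ± 0.10 for donor minus host leptomeningeal cells (adjusted p = 0.0442).

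H2-D1, the other classical heavy chain, had 2669, 2906 and 3022 CPM in donor leptomeningeal cells. Host leptomeningeal cells had 2699 and 2721 CPM in mutant and 2334 and 2473 CPM in control chimeras. Donor microglia had 1893, 2126 and 2386 CPM, against 945, 1067 and 1250.5 CPM in host microglia. As for H2-K1, host microglia lay apart from the rest, and donor leptomeningeal cells also lay above every donor microglia library. Folds were 1.18 ± 0.07 for donor minus host microglia, 1.43 ± 0.09 for the compartments in host cells and 0.66 ± 0.07 in donor cells, all called. The difference between donor and host leptomeningeal cells was 0.41 ± 0.09 (adjusted p = 0.000352). Of the 50-base words in the last 500 bases of transcripts, 7.71% of those of H2-K1 also lie in H2-D1. Of those of H2-D1, 3.52% lie in H2-K1, so some reads of these genes can be mixed.

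B2m, the light chain shared by class I molecules, was ordered otherwise. It had 2671, 3107 and 4171 CPM in donor leptomeningeal cells, and 5057 and 4381 CPM in mutant and 4616 and 4528 CPM in control host leptomeningeal cells. Donor microglia had 1392, 1872 and 2276 CPM, against 690.0, 2107 and 2134 CPM in host microglia. Host leptomeningeal cells were above all donor leptomeningeal libraries, which were above all microglia, and both microglial populations overlapped. Folds were 1.04 ± 0.15 for the compartments in donor cells and 1.5 ± 0.18 in host cells (adjusted p = 2.77e-06 and 1.27e-07). Donor minus host gave 0.17 ± 0.15 in the parenchyma (adjusted p = 0.338) and -0.29 ± 0.18 in the leptomeninges (adjusted p = 0.255), neither called. With the leptomeningeal groups fitted alone the leptomeningeal difference was called lower (-0.31, adjusted p = 0.00862).

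The value of 690.0 CPM (1130 UMIs) belonged to mutant library 4 of host microglia, a library chosen after its value was seen. The other mutant libraries had 2086, 2129 and 1730.1 CPM, against 2086, 2128, 2127 and 2134 CPM in control host microglia. H2-K1 and H2-D1 in that library, at 961 and 1123 CPM, lay within or above the range of the other host microglia. Its microglial markers made up 3.084% of UMIs, against 3.409% to 3.729% in the other host microglia. Its neutrophil markers made up 0.1139%, against 0.01646% to 0.05388%, and the part of either in its B2m value was not tested. Without this library the B2m folds were 0.05 ± 0.09 for donor minus host microglia and 1.38 ± 0.11 for the compartments in host cells, and the genotype fold in host microglia was -0.09 ± 0.13 in place of -0.34 ± 0.21.

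UMIs of H2-K1 and H2-D1 together per UMI of B2m differed between origins. The ratio ran from 1.06 to 1.72 (median 1.53) in donor leptomeningeal cells, against 0.835 to 1.06 (median 0.941) in host leptomeningeal cells. It ran from 1.88 to 2.59 (median 2.03) in donor microglia, against 0.854 to 3.02 (median 0.889) in host microglia, where mutant library 4 gave the highest value and the next was 1.26. The ratio compares groups and is not a protein ratio, since 3′ counting reads each gene with its own efficiency.

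**Figure D3:**
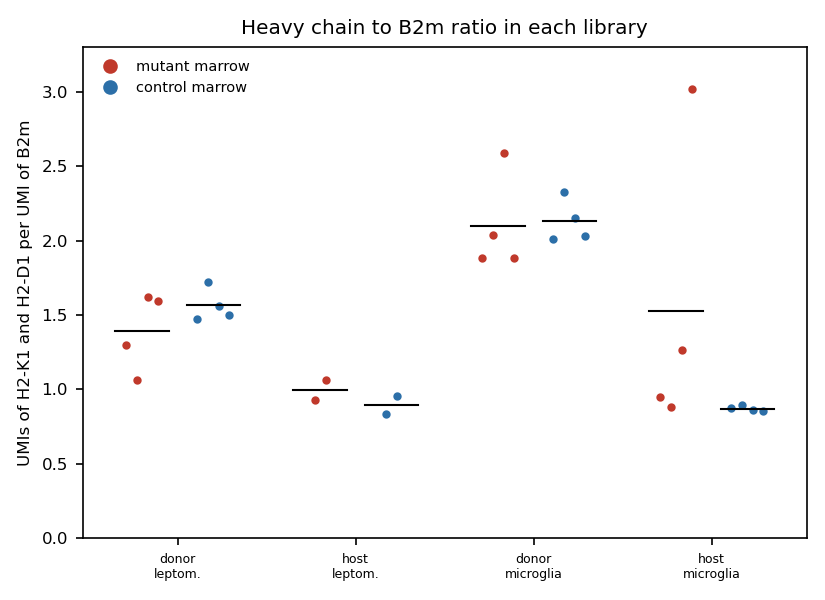
UMIs of H2-K1 and H2-D1 per UMI of B2m in each library, with mutant marrow left of control marrow and black lines at the group means. The ranges of donor and host leptomeningeal cells meet at 1.06, and donor microglia lie above host microglia apart from 1 mutant host library at 3.02.

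H2-Q7, the Qa-2 heavy chain, had the largest folds of the 10 members in the parenchymal origin comparison and in the host compartment comparison. It had 95.2, 112 and 166 CPM in donor leptomeningeal cells, and 106 and 98.3 CPM in mutant and 93.5 and 126 CPM in control host leptomeningeal cells. Donor microglia had 46.2, 60.6 and 83.9 CPM, against 6.85, 13.05 and 22.9 CPM in host microglia. Both microglial populations lay apart from each other and from the leptomeningeal cells, which overlapped. Folds were 2.43 ± 0.15 for donor minus host microglia, 3.20 ± 0.15 for the compartments in host cells and 1.15 ± 0.12 in donor cells, all called, and 0.38 ± 0.13 for donor minus host leptomeningeal cells (adjusted p = 0.0219). Counts were 14 to 57 UMIs in host microglia, and 11.8% of the 50-base words in the last 500 bases of its transcripts occur in other genes, nearly all of these in H2-Q5, so reads of these neighbours can be mixed.

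H2-T23, the Qa-1b heavy chain that NKG2A and NKG2C receptors read, had the smallest folds of the 4 heavy chains in the parenchymal origin comparison and in both compartment comparisons. It had 363, 419 and 487 CPM in donor leptomeningeal cells, and 501 and 458 CPM in mutant and 452 and 409 CPM in control host leptomeningeal cells. Donor microglia had 347, 457 and 551 CPM, against 304, 337 and 395 CPM in host microglia. Neighbouring populations in this order overlapped throughout. Folds were 0.56 ± 0.08 for donor minus host microglia and 0.60 ± 0.10 for the compartments in host cells, both called, and 0.15 ± 0.08 in donor cells (adjusted p = 0.126), which was called without mutant donor microglia library 1 (0.19, adjusted p = 0.0424). The last 500 bases of its transcripts share 38.1% of their 50-base words with other genes, and it overlaps A930015D03Rik on the other strand, so its counts are less certain than those of the other members.

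Tap1 and Tap2, the subunits of the peptide transporter, moved little. Tap1 had 115, 145 and 162 CPM in donor leptomeningeal cells, and 125 and 131 CPM in mutant and 127 and 100.2 CPM in control host leptomeningeal cells. Donor microglia had 88.5, 115 and 154 CPM, against 109.5, 119 and 134 CPM in host microglia. All 4 populations overlapped in Tap1. Donor leptomeningeal cells were higher than donor microglia by 0.49 ± 0.10 and higher than host leptomeningeal cells by 0.47 ± 0.12 (adjusted p = 4.13e-05 and 0.00164). The other Tap1 contrasts, donor minus host microglia (0.17 ± 0.10, adjusted p = 0.148) and the compartments in host cells (0.19 ± 0.12, adjusted p = 0.178), were not called. The first of these was called with DESeq2 size factors (0.25, adjusted p = 0.03), with the DESeq2 test (0.25, adjusted p = 0.029) and with these groups fitted alone (0.26, adjusted p = 0.0381).

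Tap2 had 108, 125 and 153 CPM in donor leptomeningeal cells, and 175 and 184 CPM in mutant and 177 and 157 CPM in control host leptomeningeal cells. Donor microglia had 116, 131 and 146 CPM, against 122, 156 and 172 CPM in host microglia. Host cells were the higher ones in both compartments by CPM medians, the reverse of Tap1 in the leptomeninges. The compartment fold was 0.37 ± 0.10 in host cells (adjusted p = 0.00186), with adjusted p = 0.102 on plain totals and 0.0572 without control host leptomeningeal library 1. In donor cells it was 0.21 ± 0.09 (adjusted p = 0.0392) with TMM and -0.03 (adjusted p = 0.76) with plain totals, so its direction in donor cells depends on the scaling. That call was also lost without any of 12 single libraries, namely control donor microglia 1, 2 and 4, mutant donor microglia 2 and 3, control donor leptomeningeal libraries 1, 2 and 3, and all 4 mutant donor leptomeningeal libraries (adjusted p = 0.0535 to 0.174). It was lost as well with DESeq2 size factors (0.117), the DESeq2 test (0.139), voom (0.119) and these groups fitted alone (0.0966). It was also lost without control library 1 and mutant library 4 of donor microglia together (0.0547), the libraries with the lowest UMI totals (479077 and 487382). DESeq2 and voom thus called 8 members, not 9, between the compartments in donor cells. Donor minus host gave -0.04 ± 0.09 in the parenchyma and -0.20 ± 0.10 in the leptomeninges (adjusted p = 0.736 and 0.145). Tap1 overlaps Psmb9 on the other strand and Tap2 overlaps Gm20496, and reads of such partners cannot be told apart where counting ignores strand, and the strand setting of the counting is not stated.

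Tapbp, the chaperone tapasin, was the single member lower in donor than in host microglia. It had 400.3, 421 and 432 CPM in donor leptomeningeal cells, and 381 and 431 CPM in mutant and 397 and 478 CPM in control host leptomeningeal cells. Donor microglia had 174, 181 and 238 CPM, against 267, 316 and 372 CPM in host microglia. Donor microglia lay below all other libraries, and the leptomeningeal populations overlapped above both microglial ones. Folds were -0.53 ± 0.08 for donor minus host microglia, 1.35 ± 0.08 for the compartments in donor cells and 0.60 ± 0.10 in host cells (adjusted p = 5.48e-07, 1.98e-18 and 6.8e-07). Of the last 500 bases of its transcripts, 4.83% of the 50-base words also lie in the overlapping gene Zbtb22.

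Psmb8, the catalytic immunoproteasome subunit, had 643, 756 and 899 CPM in donor leptomeningeal cells, and 819 and 748 CPM in mutant and 742 and 614 CPM in control host leptomeningeal cells. Donor microglia had 328, 373 and 453 CPM, against 259.5, 283 and 304 CPM in host microglia. The leptomeningeal populations overlapped each other and lay above donor microglia, which lay above host microglia. Folds were 1.24 ± 0.08 and 1.55 ± 0.09 for the compartments in donor and in host cells, 0.59 ± 0.08 for donor minus host microglia and 0.29 ± 0.09 for donor minus host leptomeningeal cells, all called.

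Nlrc5, the class I transactivator, was the lowest member by count, with 6 to 118 UMIs per library. It had 30.3, 40.5 and 48.1 CPM in donor leptomeningeal cells, and 35.1 and 41.4 CPM in mutant and 36.5 and 42.1 CPM in control host leptomeningeal cells. Donor microglia had 12.5, 24.2 and 34.7 CPM, against 4.88, 6.98 and 11.3 CPM in host microglia. The order was that of H2-Q7, with the leptomeningeal populations overlapping and host microglia lowest. Folds were 1.90 ± 0.21 for donor minus host microglia, 2.54 ± 0.21 for the compartments in host cells and 0.91 ± 0.17 in donor cells, all called, and 0.27 ± 0.18 for donor minus host leptomeningeal cells (adjusted p = 0.263).

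**Figure D4:**
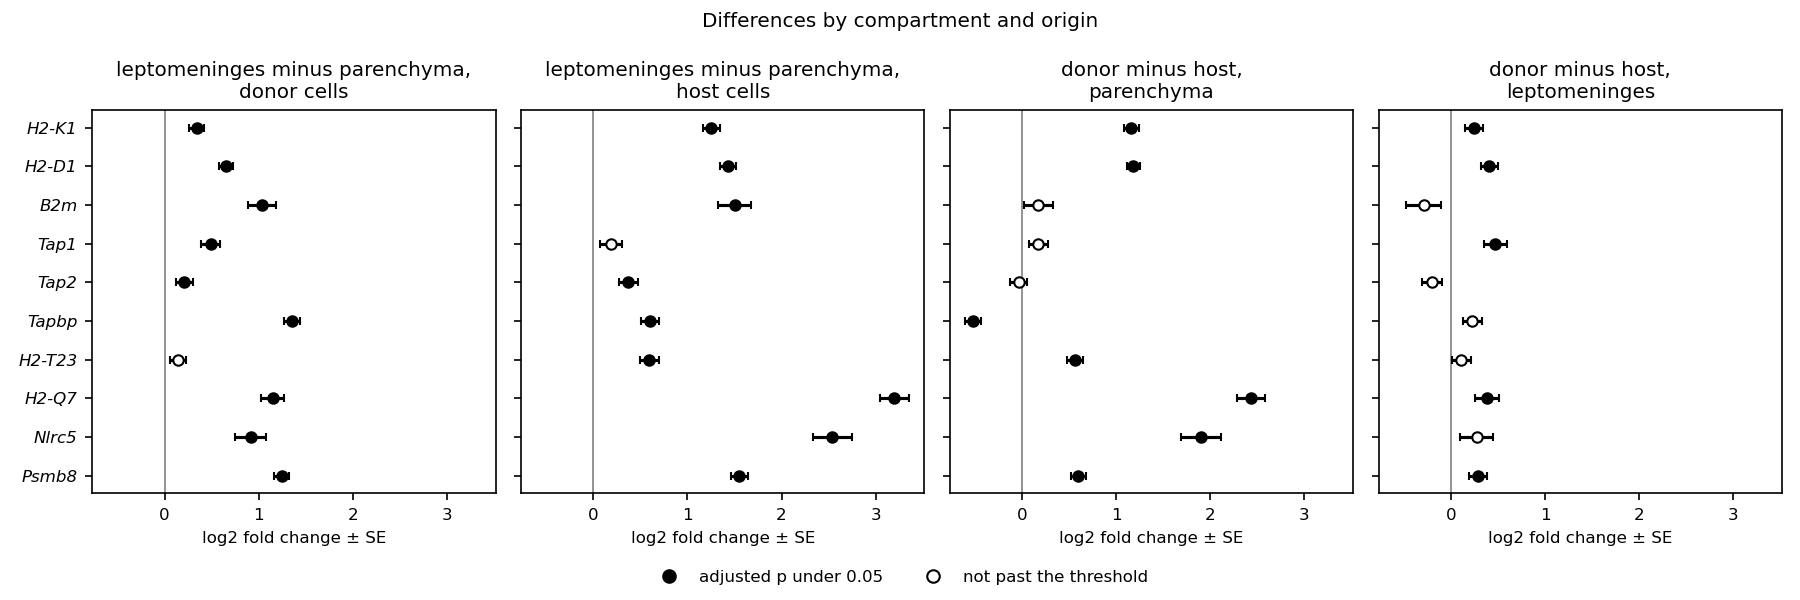
Log2 fold changes ± SE of the 10 members in the compartment and origin comparisons, with filled points at an adjusted p under 0.05. H2-Q7 and Nlrc5 have the largest folds for host cells of the leptomeninges over host microglia (3.20 and 2.54), and Tapbp alone lies below 0 among the points called in donor minus host microglia (-0.53).

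The donor-minus-host difference itself depended on the compartment for 7 members. Leptomeningeal minus parenchymal, it was lower for 6 (23.2% of all genes tested were lower), namely H2-Q7 (-2.05 ± 0.20), Nlrc5 (-1.63 ± 0.27), H2-K1 (-0.91 ± 0.12), H2-D1 (-0.78 ± 0.11), H2-T23 (-0.45 ± 0.13) and Psmb8 (-0.31 ± 0.12). It was higher for Tapbp (0.75 ± 0.13), where 19.1% of all genes were higher. The Psmb8 call (adjusted p = 0.0371) was lost under 16 alternatives, 12 of which left out a single library. These were donor microglia mutant 1 and 4 and control 1 and 3, host microglia mutant 2 and control 1 and 2, donor leptomeningeal mutant 3 and control 2 and 4, and host leptomeningeal mutant 1 and control 1, the last with the highest adjusted p (-0.17, 0.333). The H2-T23 call was lost without that last library (-0.34, adjusted p = 0.053). B2m, Tap1 and Tap2 did not pass the test (adjusted p = 0.122, 0.118 and 0.367). B2m passed it with DESeq2 on all libraries (-0.54, adjusted p = 0.0373) and without mutant host microglia library 4 (-0.34, adjusted p = 0.0455). Tap1 was called under 4 alternatives (0.38 to 0.46). These left out mutant donor microglia library 1, control donor microglia library 1, control library 1 and mutant library 4 of donor microglia together, or control host leptomeningeal library 1.

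The comparison of mutant with control marrow sets marrow with Vav-Cre against marrow without Cre. Recombination of the human allele and the presence of Cre cannot be told apart in it. In host cells, which did not come from that marrow, it compares hosts given the one or the other marrow. edgeR's test called 0 of 10 members in each of the 4 populations, as did DESeq2 and limma voom. Over all genes it called 0.0487% in donor leptomeningeal cells, 0% in host leptomeningeal cells (665 genes at an unadjusted p under 0.05), 0.0892% in donor microglia and 0.0649% in host microglia. Member folds ran from -0.10 to 0.32 in donor leptomeningeal cells, from -0.06 to 0.27 in host leptomeningeal cells, from -0.19 to 0.30 in donor microglia and from -0.34 to 0.92 in host microglia. At an unadjusted p under 0.05 the members were H2-Q7 in donor leptomeningeal cells and H2-Q7 in host microglia, and 0 in the other populations. SEs of the folds were 0.10 to 0.29 in donor microglia and 0.15 to 0.30 in host leptomeningeal cells. Differences of that size, and ones several times larger, could go uncalled in these libraries. In host microglia, H2-Q7 at 0.92 ± 0.23 was not called by edgeR's test (adjusted p = 0.188).

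H2-Q7 in host microglia had 22.9, 14.5, 18.4 and 14.0 CPM in mutant chimeras, against 9.69, 8.90, 6.85 and 12.1 CPM in control chimeras. Every mutant library lay above every control library, as was so for 1.61% of all genes (3.39% in either direction), and H2-Q7 was the only member whose libraries did not overlap there. The fold was 0.92 ± 0.23 with an unadjusted p of 0.000213 and an adjusted p of 0.188 by edgeR's test (0.11 to 0.757 over the alternatives), so it did not pass the threshold. T and NK cell markers (18 genes, Klrb1c at 0 in mutant and Ncr1 at 0 in control libraries) made up 0.00559% to 0.00828% of UMIs in mutant and 0.00258% to 0.00548% in control host microglia, and their part in the H2-Q7 values was not tested. H2-Q7 folds elsewhere were 0.32 ± 0.14 in donor leptomeningeal cells (unadjusted p = 0.0266, adjusted p = 1), 0.30 ± 0.20 in donor microglia (adjusted p = 0.629) and -0.05 ± 0.22 in host leptomeningeal cells (adjusted p = 1).

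In host leptomeningeal cells, with 2 libraries per genotype, H2-K1, H2-D1, H2-T23 and Psmb8 were higher in both mutant libraries than in both control libraries, as were 15.3% of all genes (33.9% in either direction). None of these 4 was called (folds 0.20 to 0.27, adjusted p = 0.935 to 0.974). In the same libraries microglial markers made up 0.605% to 0.635% of UMIs in mutant, against 0.804% to 1.075% in control cells, and border macrophage markers 1.60% to 1.80% in mutant, against 1.29% to 1.52% in control cells, without overlap, and their part in these values was not tested. In donor leptomeningeal cells and in donor microglia 0 members were without overlap between genotypes (3.62% and 3.53% of all genes). The genotype effect in donor minus host microglia was called for 0 members (0.0324% of all genes), with H2-Q7 at -0.62 ± 0.30 (unadjusted p = 0.0466, adjusted p = 0.819). In leptomeningeal minus parenchymal donor cells it was called for 0 members (0% of all genes, 785 at an unadjusted p under 0.05), with Psmb8 at 0.36 ± 0.16 (unadjusted p = 0.0253, adjusted p = 0.718).

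**Figure D5:**
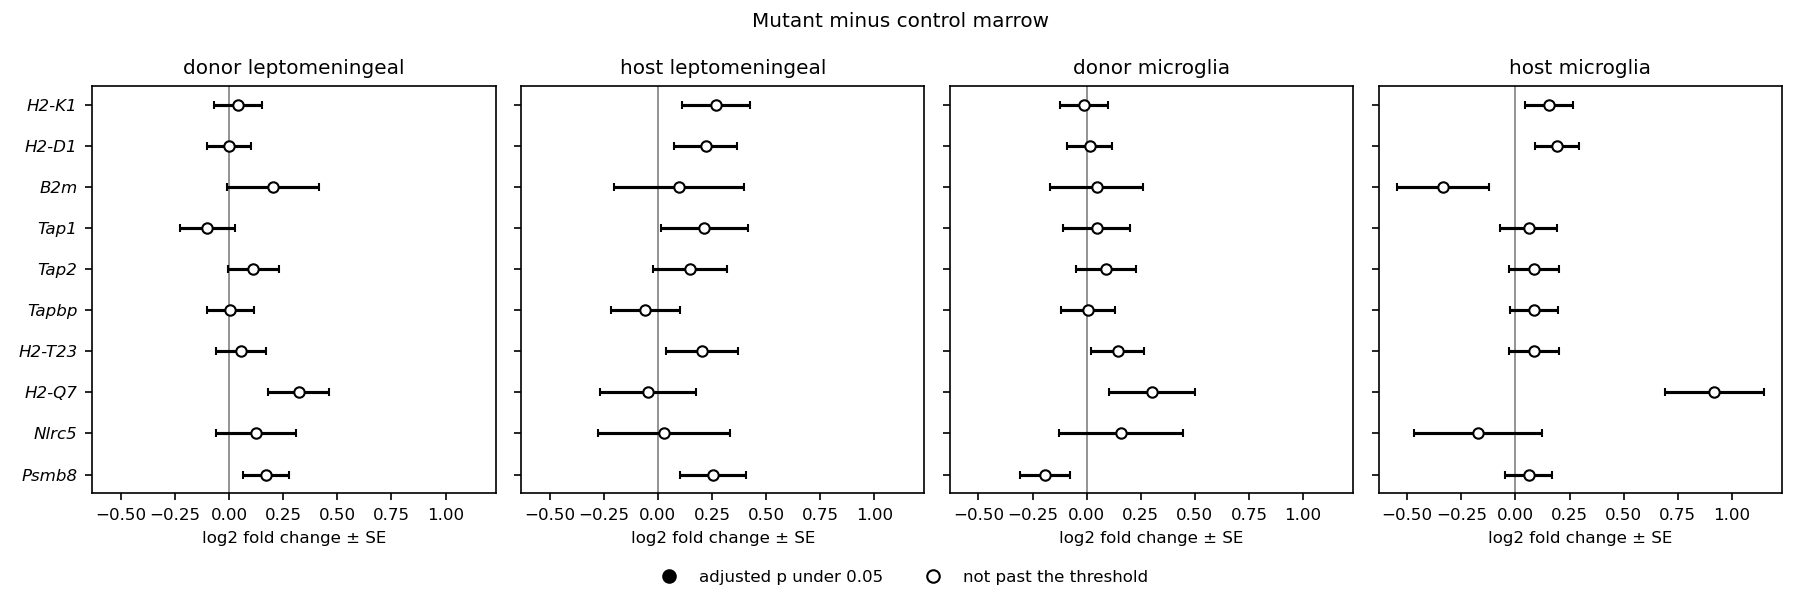
Log2 fold changes ± SE of mutant minus control marrow for the 10 members in each population, with open points where the adjusted p was not under 0.05. Every point is open, and the point farthest from 0 is H2-Q7 in host microglia (0.92 ± 0.23).

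The other genes of the pathway were read from lists. Of 18 other heavy chains, 13 were in the table and tested. Donor minus host microglia had 8 of these higher and 4 lower, with a median of 0.59, where 33.1% of all genes were higher and 27.3% lower. They included H2-Q6 (2.07 ± 0.12) and H2-Q4 (2.07 ± 0.26) among the higher, and Fcgrt (-1.02 ± 0.09), the neonatal Fc receptor heavy chain, among the lower. Host cells of the leptomeninges over host microglia had 8 higher and 4 lower (31.1% and 25.7% of all genes), with H2-Q6 at 3.29 ± 0.12 and Fcgrt at 2.58 ± 0.10. In donor cells the 4 with the smallest adjusted p went both ways (30.5% of all genes were higher and 31.5% lower). Fcgrt (2.32 ± 0.09) and H2-Q6 (1.71 ± 0.10) were higher in the leptomeninges, and H2-M3 (-0.75 ± 0.11) and H2-M2 (-3.27 ± 0.54) were lower. H2-Q6 averaged 201 ± 45.2 CPM in donor leptomeningeal cells (n = 8), 166 ± 22 in host leptomeningeal cells (n = 4), 72.0 ± 14.6 in donor microglia (n = 8) and 19.7 ± 4.87 in host microglia (SD, n = 8), the order of its neighbour H2-Q7.

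Immunoproteasome and activator genes (7 besides Psmb8) were higher in leptomeningeal than in parenchymal cells for 6 of 7 in donor and 6 of 7 in host cells, with 0 lower. Of all genes, 30.5% were higher and 31.5% lower in donor cells, and 31.1% higher and 25.7% lower in host cells, which are also the shares for the core subunits and loading factors that follow. Psmb9, the immunoproteasome subunit encoded beside Tap1, had folds of 0.52 ± 0.08 in donor and 0.95 ± 0.10 in host cells, and Psme2, of the proteasome activator PA28, 1.06 ± 0.09 and 1.00 ± 0.11. Of 14 constitutive core subunits, 7 were higher and 2 lower in donor cells, and 5 higher and 2 lower in host cells. Of 16 other loading and trimming factors, 8 were higher and 3 lower in donor cells, and 3 higher and 6 lower in host cells. Calr, the chaperone calreticulin, was among the lower ones, with -0.59 ± 0.09 in donor and -1.55 ± 0.12 in host cells. Calr was also lower in donor than in host microglia (-0.95 ± 0.09), where 1 of these 16 factors was higher and 7 lower (33.1% and 27.3% of all genes).

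Of 27 regulators of class I genes, donor minus host microglia had 7 higher and 12 lower, where 33.1% of all genes were higher and 27.3% lower. Ifnar1 (1.28 ± 0.12), a chain of the type I interferon receptor, was higher, and Ifngr1 (-1.24 ± 0.09), the ligand-binding chain of the interferon gamma receptor, was lower. Interferon response genes (24) were called higher for 17 and lower for 2 in donor than in host microglia (median 1.26), against those same shares. They were higher for 23 and lower for 0 in leptomeningeal over parenchymal host cells (median 1.92), where 31.1% of all genes were higher and 25.7% lower. Between donor and host leptomeningeal cells 2 were higher and 3 lower (median 0.05), where 16.9% of all genes were higher and 13.3% lower. Ifi204 (2.62 ± 0.17) and Bst2 (2.66 ± 0.14) were among the higher ones in donor microglia, and Igtp (-1.21 ± 0.14) among the lower.

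The list meant for inhibitory receptors of class I held 10 genes. Neither an inhibitory role nor binding to class I was checked for each gene, Lilr4b among them. Of the 10 genes, 6 were tested. Of these 4 were higher and 1 lower in donor than in host microglia, with Klra2 at 5.79 ± 0.20, Lilr4b at 3.57 ± 0.20 and Pirb at 0.86 ± 0.11 (33.1% and 27.3% of all genes). Of the same genes 5 were higher and 1 lower in leptomeningeal over parenchymal host cells, with Pirb at 2.83 ± 0.11 (31.1% and 25.7% of all genes). Sirpa, which reads CD47 rather than class I, was the lower one in both (-1.51 ± 0.08 and -1.95 ± 0.11). In the genotype comparisons 0 genes of these lists were called in any population. MHC class II genes, measured beside them, had 3 of 10 higher in mutant than in control host microglia, namely H2-Ab1 (1.04 ± 0.17), H2-Eb1 (1.14 ± 0.20) and Cd74 (0.96 ± 0.17), with adjusted p = 0.018, 0.0259 and 0.0259, where 0.0649% of all genes were called in either direction. All 3 calls were lost with voom, with these groups fitted alone (adjusted p = 0.781 for each, where 0 genes were called), and without control host microglia library 1 or 2 or mutant library 2, 3 or 4. The H2-Eb1 and Cd74 calls were also lost without control host microglia library 4, and without control library 1 and mutant library 4 of donor microglia together. All 3 were kept with DESeq2, with plain totals, and without control library 3 or mutant library 1 of host microglia.

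Likeness of pattern was measured as Pearson's r of mean log2 CPM over the 8 groups, among 8466 tested genes with a mean of at least 10 CPM. This is a description over few points that share libraries, and carries no p. Among the members, H2-K1 was most like H2-D1 (r = 0.99), H2-Q7 was like H2-D1 and Nlrc5 (0.983 and 0.98), and Tap1 and Tap2 were the least alike pair (0.313). H2-K1 and H2-D1 share some 3′ sequence, and its part in their likeness was not tested. Outside the members, the genes most like H2-K1 were D8Ertd738e, Klf6, Iqgap2, Cox6b2 and Cd74 (0.993 to 0.999). Those most like B2m were Plek, Gm37352, Prr5, Clec4a3 and Pla2g2d (0.985 to 0.993), and those most like Tap1 were Cers6, Cdk1, Ctdspl, Esyt1 and Txn1 (0.981 to 0.988). Those most like Nlrc5 were Atp5mpl, Gm6204, Plekhg3, Slfn5 and Nsa2 (0.995 to 0.997).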

How the data were processed

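RNA of 28 libraries was counted as UMIs by MARS-seq. Raw UMI counts per gene symbol were deposited by the authors, in 1 table with 14617 genes, on mm10 per the submitters' processing notes. No aligner, counter, annotation or strand setting was given in the sources used here. That deposited table holds counts divided by size factors (a normalized signal) and regularized log2 values per the file headers, and neither was used for a result. No column of other samples was found (0).

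Groups were taken from titles and descriptions. CPM were computed from raw counts over all genes. Genes were filtered with filterByExpr, and 12327 were fitted in 1 model of 8 groups with edgeR 4.0.16 (TMM, quasi-likelihood F test, R 4.3.3), with BH adjustment over all of them and calls at 0.05. The design averages genotypes in the origin and compartment comparisons. DESeq2 1.42.0 and limma 3.58.1 voom were alternatives, and the fit was tested on simulated data. Among 38 pairs of same-group libraries, the lowest chi-square per degree of freedom was 1.9, so none was taken as the same library. UMI totals of 479077 to 3066506 limit precision, and 3 counts is the limit that a count of 0 allows, for counting error only.

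Members, gene lists and tests were chosen with earlier results of these data known. Besides the members, text names up to 4 genes per list and comparison with the smallest adjusted p, the 5 genes most like each of 4 members, and Dnmt3a. Symbols were matched to GENCODE M21 for 14370 genes. Promoters came from RefSeq, GRCm38.p6, for 8 members, with identities from Biopython 1.88 (Python 3.11.15). Figures used matplotlib 3.10.9.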

Additional observations from a re-analysis of the deposited data

Results flagged for a closer look

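The donor-minus-host difference was larger or smaller in the leptomeninges than in the parenchyma for 7 members, by the edgeR interaction test, where 23.2% of all genes were lower and 19.1% higher. The differences between the 2 compartments were -2.05 for H2-Q7, -1.63 for Nlrc5, -0.91 for H2-K1, -0.78 for H2-D1, -0.45 for H2-T23, -0.31 for Psmb8 and 0.75 for Tapbp, on the log2 scale. The Psmb8 call was lost under 16 alternatives, and the H2-T23 call without control host leptomeningeal library 1 (adjusted p = 0.053).

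Of 60 sets of 4 libraries, 3 held a library set apart from its group, and chance alone flags about 1 in 20 sets. The rule takes the gap to the nearest library as a share of the range of the set (0.842 to 0.881 in these 3). A small deviation can thus be flagged where the other libraries lie close together. B2m in mutant host microglia library 4, at 690.0 CPM, was not flagged. B2m in control host microglia library 1 was 2086 CPM, where the others were 2127 to 2134 CPM. Tap1 in control donor leptomeningeal library 2 was 162.4 CPM, where the others were 142.6 to 145.8 CPM. Tapbp in mutant donor microglia library 3 was 235.5 CPM, where the others were 176.5 to 183.5 CPM.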

How the results depend on the processing

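Of 2390 alternative member folds, 2312 stayed on their side of the threshold, 58 were no longer called, 19 became called and 1 reversed. Of 1418 alternative folds of members and named genes that were called in neither fit, 116 changed sign. The reversed one was Tap2, leptomeningeal minus parenchymal donor cells, at -0.033 with plain library totals, an alternative chosen after seeing the data. With plain totals 2 members, in place of 5, were called between donor and host leptomeningeal cells, and without single libraries 2 to 5. The other member counts without single libraries were 7 for donor minus host microglia, 8 to 10 and 8 to 9 for the compartments in donor and host cells, 6 to 8 for the origin difference, and 0 in every genotype comparison.

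Counts of all genes called by genotype moved more, and the cause was not tested. In donor microglia (11) they were 17 without the low-count filter, 81 with DESeq2, 125 with voom, 4 with these groups fitted alone, 6 without control library 1 and mutant library 4, and 3 to 544 without single libraries (lowest without control library 1, highest without control library 2). In host microglia (8) they were 15 with DESeq2, 5 with voom, 0 fitted alone, 3 without those donor libraries and 0 to 11 without single libraries. In donor leptomeningeal cells (6) they were 12 with voom and 4 to 7 without single libraries. In host leptomeningeal cells (0) they were 3 with DESeq2 size factors, 2 without the filter, 25 with DESeq2, 17 fitted alone, 2 without those donor libraries, 6 with plain totals and 1 to 5 without single libraries. The genotype effect in donor minus host microglia (4) gave 14 with DESeq2, 2 without those donor libraries and 2 to 75 without single libraries. In leptomeningeal minus parenchymal donor cells (0) it gave 2 with DESeq2, 1 with voom and 0 to 149 without single libraries.

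Same-numbered libraries of the same genotype, which could share an animal, had r = -0.18 to 0.164, and no set had all pairs over 0.1. Libraries that were most like their own number ran from 0 of 4 (mutant host leptomeningeal cells and host microglia) and 1 of 8 (mutant donor and host microglia) upward. The highest were 5 of 8 (mutant donor leptomeningeal cells and donor microglia) and 4 of 4 (control host leptomeningeal cells and host microglia). Pairing was thus not settled, and numbers were not taken as pairs. With the replicate block, genes called were 4 in host leptomeningeal cells and 1 for the genotype effect in leptomeningeal minus parenchymal donor cells (2 with the block within genotype). Under the block, H2-K1 between donor and host leptomeningeal cells had an adjusted p of 0.0667 and Psmb8 for the origin difference 0.0502. Nlrc5 (6 to 35 UMIs in donor, 8 to 27 in host microglia) and H2-Q7 (14 to 57 in host microglia) were limited by depth.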
